A study of Mus musculus with 20 samples.

Results

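Lyve1, Mrc1, Cd163, Folr2, Timd4, Cd209f, F13a1, Pf4 and Cbr2 are genes by which the macrophages that live along vessels and stay in a tissue are commonly recognized. These 9 of the 46078 genes in the deposited count table were described in ribosome-bound mRNA from mouse epididymal adipose tissue (epiAT). They were chosen by name, as the table rows whose Ensembl identifier carries 1 of these symbols in GENCODE vM21, and all 9 were found and had enough counts to be tested.

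Resident adipose tissue macrophages lie close to blood vessels, take up proteins and debris, and are largely maintained without new monocytes. Obesity is known to bring monocyte-derived macrophages into the tissue, many of which become lipid-associated macrophages around dying adipocytes. Mrc1 (CD206, a mannose receptor), Cd163 (the scavenger receptor for haemoglobin bound to haptoglobin), Lyve1 (a hyaluronan receptor shared with lymphatic endothelium) and Folr2 (folate receptor beta) are surface receptors of the resident cells. Cd209f is a C-type lectin of the DC-SIGN family, and Timd4 (TIM4) binds phosphatidylserine on dying cells. F13a1 encodes the A subunit of coagulation factor XIII, Pf4 a chemokine (CXCL4) shared with platelets, and Cbr2 a carbonyl reductase.

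All mice were male AdipoERCre x NuTRAP animals on a C57BL/N background per the study's methods (C576BL6 in the labels), in which tamoxifen turned on a GFP-tagged ribosomal protein and a biotinylated nuclear label in cells that expressed Adipoq-driven Cre, that is, in adipocytes. Translating ribosome affinity purification (TRAP–seq) pulled down the tagged ribosomes from whole epiAT, so mRNA of macrophages was not its target. In the short arm, C (chow) and H (12 weeks of high-fat diet, HFD) were 18 weeks old, and CC_s (chow) and HC (12 weeks of HFD, then 8 weeks of chow, the weight loss (WL) group) were 26 weeks old (3 mice a group). In the long arm, CC_l (chow) and HH (25 weeks of HFD) were 31 weeks old, and CCC (chow) and HHC (25 weeks of HFD, then 8 weeks of chow) were 39 weeks old (2 mice a group). Controls carried the same alleles and received tamoxifen too. H, HC, HH and HHC were each set against the age-matched chow mice of the same arm, and the library names of the 2 arms carry different prefixes in the labels.

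Depth ranged from 10710277 to 36738954 counts per library. The limit that a count of 0 allows (3 counts) stood between 0.0815 and 0.251 CPM per library. CPM are counts scaled to the total of the library multiplied by its TMM factor. The lowest count of any of the 9 genes in any library was 6. The labelled cell type was seen in every library: Adipoq, the adipocyte hormone adiponectin, stood between 493 CPM (HC mouse 3) and 8796 CPM. HC mouse 3 also had the lowest summed level of 9 adipocyte genes of the 20 libraries. It was 15351 CPM, against 75804 and 73632 CPM in HC mice 1 and 2. A few libraries stood apart in genes of neighbouring tissue. The summed level of 6 spermatid genes was 3256 CPM in CC_l mouse 1 and 452 CPM in HC mouse 3 but at most 92.5 CPM in the other libraries. That of 6 epididymal epithelium genes reached 2228 CPM in C mouse 1 and 840 CPM in H mouse 2. H mouse 2 had the highest summed level of the members (707 CPM) and of the general macrophage markers (4893 CPM) in H. HC mouse 3 also had the highest summed level of the members and of the general macrophage markers in its group, although it was the lowest HC mouse for Cd209f and Cbr2. Many, but not all, of the values that HC mouse 3 or CC_l mouse 1 moved by over 1.5 times are given with and without them. The same holds for the calls that they decided. Where CC_l mouse 1 is left out, the lone CC_l mouse is taken to vary like the other groups. In bulk samples fewer cells of a type and less RNA per cell cannot be told apart, which holds for every level below.

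The stretches of DNA in front of the members that passed the test below in at least 1 comparison are shown as a description. A link between these sequences and the levels was not tested. RefSeq start sites (build GRCm38.p6) were found for 8 of the 9 genes. Each line gives the 250 bases before a start, 5′ to 3′ on the gene's strand, in lower case, with capitals for the core letters of PU.1, the macrophage lineage factor (GAGGAA), the MAF half-site (TGCTGA) or the TATA box (TATAAA), searched on both strands.
Folr2, first start (chr7:101857191-101857440, minus strand): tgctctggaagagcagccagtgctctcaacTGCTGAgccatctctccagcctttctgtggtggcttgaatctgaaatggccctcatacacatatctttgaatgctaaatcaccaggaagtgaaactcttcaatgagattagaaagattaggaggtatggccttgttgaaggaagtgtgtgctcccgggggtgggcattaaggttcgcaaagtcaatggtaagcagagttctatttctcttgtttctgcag
Folr2, second start (chr7:101845332-101845581, minus strand): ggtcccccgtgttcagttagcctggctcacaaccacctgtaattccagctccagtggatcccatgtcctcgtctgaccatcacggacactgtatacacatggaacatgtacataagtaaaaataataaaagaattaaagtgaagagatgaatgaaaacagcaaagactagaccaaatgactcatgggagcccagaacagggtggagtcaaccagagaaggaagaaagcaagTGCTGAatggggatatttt
Mrc1 (chr2:14229164-14229413, plus strand): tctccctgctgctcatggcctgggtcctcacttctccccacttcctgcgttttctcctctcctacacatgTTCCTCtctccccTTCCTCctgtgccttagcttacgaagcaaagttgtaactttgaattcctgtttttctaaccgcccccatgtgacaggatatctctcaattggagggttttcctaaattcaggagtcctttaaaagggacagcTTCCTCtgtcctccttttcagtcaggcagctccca
Pf4 (chr5:90772185-90772434, plus strand): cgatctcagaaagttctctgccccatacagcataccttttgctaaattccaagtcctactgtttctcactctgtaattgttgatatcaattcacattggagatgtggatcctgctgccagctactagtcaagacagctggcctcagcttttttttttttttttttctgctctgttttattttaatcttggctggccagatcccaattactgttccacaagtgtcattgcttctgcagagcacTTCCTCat
F13a1, first start (chr13:37050245-37050494, minus strand): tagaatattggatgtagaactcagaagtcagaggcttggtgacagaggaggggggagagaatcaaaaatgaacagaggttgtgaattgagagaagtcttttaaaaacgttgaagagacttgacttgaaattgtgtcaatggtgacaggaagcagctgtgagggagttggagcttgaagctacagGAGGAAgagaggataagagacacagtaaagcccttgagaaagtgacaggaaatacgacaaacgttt
Cd163 (chr6:124304401-124304650, plus strand): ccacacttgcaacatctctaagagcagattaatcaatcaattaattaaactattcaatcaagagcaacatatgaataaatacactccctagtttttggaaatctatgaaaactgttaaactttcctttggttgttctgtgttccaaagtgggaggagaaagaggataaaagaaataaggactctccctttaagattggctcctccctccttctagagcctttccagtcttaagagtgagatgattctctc

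The PU.1 letters were found in 4 of the 8 genes (Mrc1, Pf4, F13a1 and Cbr2), and 23.3% of all 32851 RefSeq windows of this length hold them. Members are counted here by gene and the shares by window, so the 2 are not in the same unit. Folr2 and F13a1 had 2 windows each, and the second F13a1 window held no match. Mrc1 held them 3 times, at 180, 167 and 35 bases before the start. The MAF letters were found in Folr2, in front of both starts, and in Timd4 (16.1% of all windows), and the TATA letters only in Cd209f among these 8 genes (12.4% of all windows). The Cd163 window held none of them. These are matches of letters and not binding sites.

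Folr2 showed the largest increase of the 9 genes under HFD in both arms. Group means were higher than in the chow control for 7 of the 9 genes in H and for 9 of 9 in HH, but few passed the test. A gene counted as differentially expressed (DEG) where edgeR's quasi-likelihood test gave an unadjusted p under 0.01 together with a log2 fold change (log2FC) of 1 or more in either direction. In H against C, Folr2 alone rose among the 9 genes (3.57% of all 21464 tested genes rose). In HH against CC_l, 4 of 9 rose, Folr2, Mrc1, Pf4 and F13a1 (4.92% of all tested genes). After WL in the short arm, HC against CC_s, 0 of 9 rose by this test (1.57% of all tested genes), with 1 of 9 at an unadjusted p under 0.05 and 1 of 9 called by DESeq2 and by the likelihood ratio test. After WL in the long arm, HHC against CCC, 1 of 9 fell, Cd163 (2.67% of all tested genes), a call that DESeq2 did not make.

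**Figure D1:**
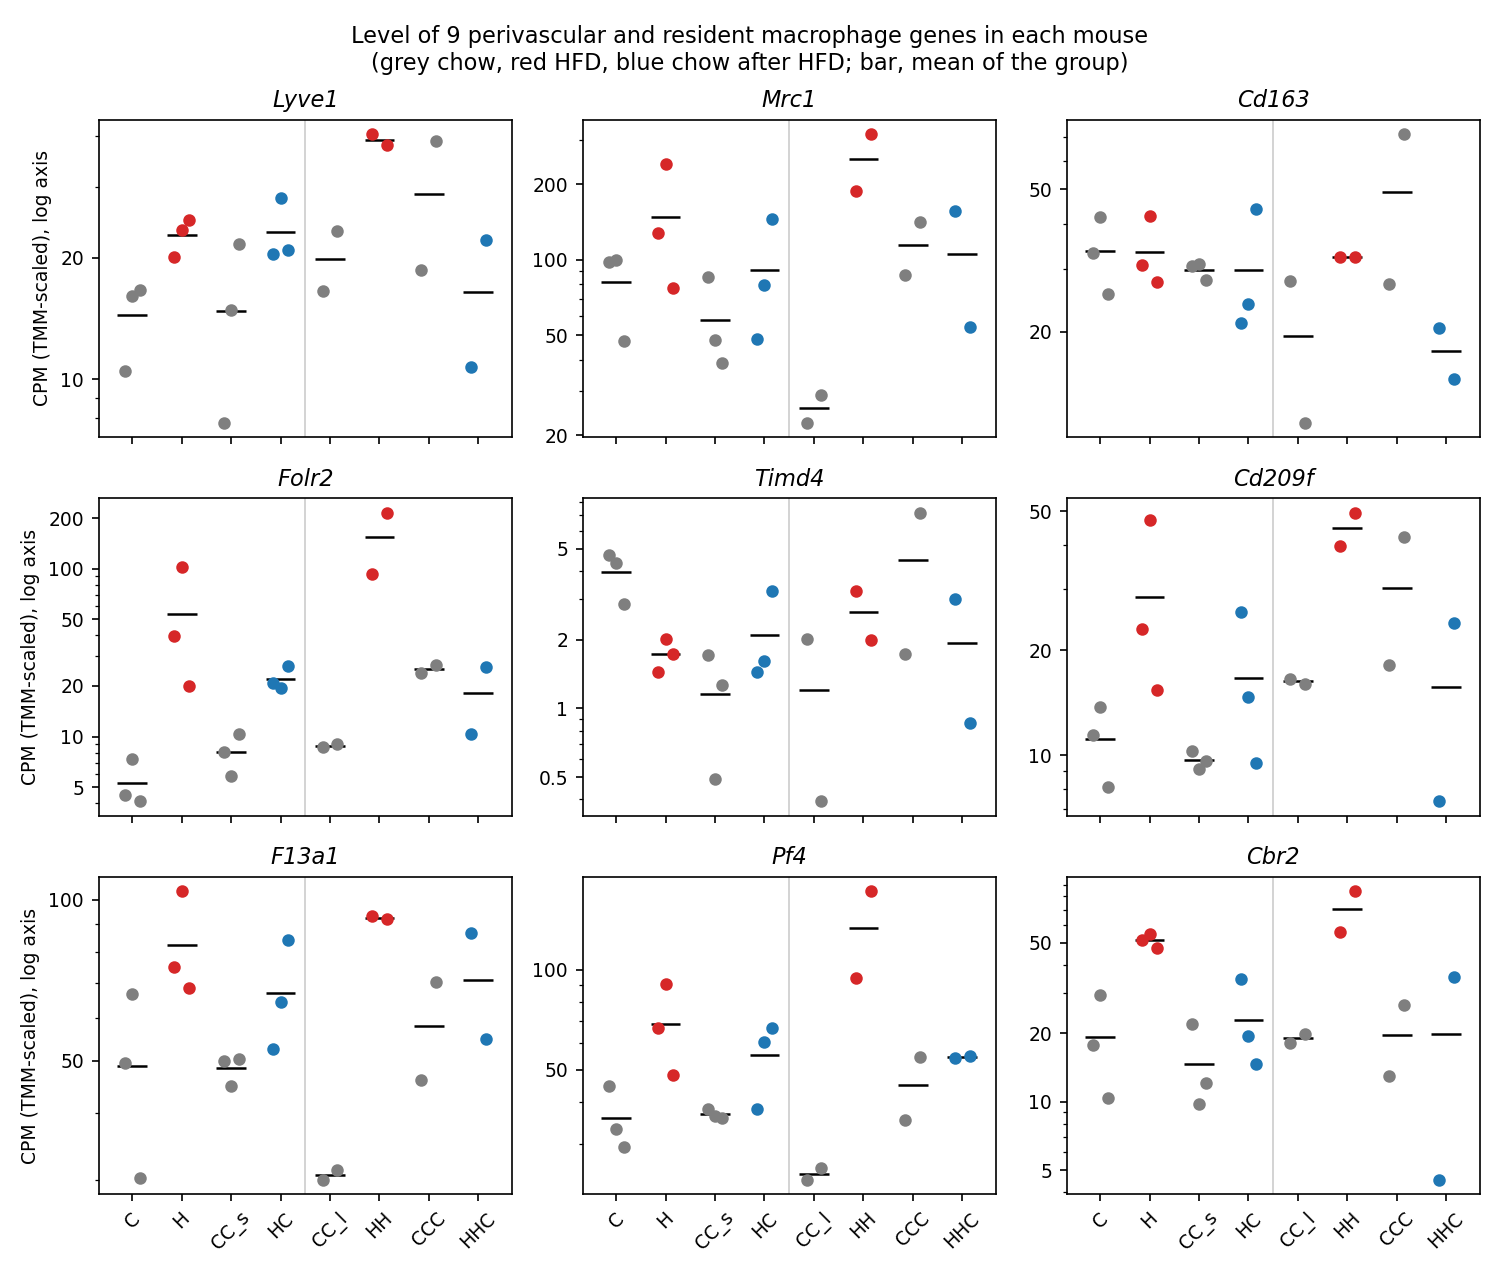
CPM (TMM-scaled, log axis) of the 9 genes in each of the 20 mice, by group; points are mice, bars are group means, grey is chow, red HFD and blue chow after HFD. Folr2 lies between 19.9 and 215 CPM in the 5 HFD mice and between 4.12 and 26.7 CPM in the 10 chow mice, and Cd163 covers much the same range in C and H.

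Counted by mice, 6 of 9 genes in H had every mouse above every C mouse (13.4% of all tested genes did) and 1, Timd4, had every mouse below (10.6%). In HC, 2 of 9 genes, Folr2 and F13a1, had every mouse above every CC_s mouse (8.01% of all tested genes). In HH, 8 of 9 genes, all but Timd4, had both mice above both CC_l mice, beside 26.3% of all tested genes in this comparison of 2 against 2. In HHC, 1 of 9 genes, Cd163, had both mice below both CCC mice (20.3% of all tested genes).

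Folr2 (ENSMUSG00000032725, mm10 chr7:101839988-101857194, minus strand) was, by group mean, lowest in young chow mice and highest after long HFD. The C mice had 4.47, 7.34 and 4.12 CPM and the H mice 39.8, 102 and 19.9 CPM. Every H mouse was above every C mouse, with a log2FC of 3.34 (SE 0.54, adjusted p = 0.00568 by edgeR). H mouse 2 was the highest, and without it the log2FC was 2.49, still a DEG. The CC_l mice had 8.66 and 8.97 CPM and the HH mice 93.3 and 215 CPM, a log2FC of 4.13 (SE 0.69, adjusted p = 0.0162 by edgeR). Without HH mouse 2 the log2FC was 3.42 and without CC_l mouse 1 it was 4.11.

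Folr2 was also measured in both WL groups. The CC_s mice had 8.08, 5.82 and 10.4 CPM and the HC mice 20.8, 19.5 and 26.2 CPM. All 3 HC mice stood above all CC_s mice, with a log2FC of 1.45 (SE 0.51, adjusted p = 0.536 by edgeR), just outside the threshold of 0.01 for an unadjusted p. Without HC mouse 3 the log2FC was 1.31. The CCC mice, the oldest chow group, had 24.0 and 26.7 CPM and the HHC mice 10.4 and 25.8 CPM. These 2 groups overlapped, with a log2FC of -0.48 (SE 0.61, adjusted p = 0.818 by edgeR).

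The exons of Folr2 overlap the antisense gene Gm10602 over 975 bases, and 52.6% of the 50-base words of Folr2's transcripts also occur in Gm10602 on the opposite strand. The strand setting of the counting is not given in the sources used here, so the split of reads between these genes is uncertain.

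Mrc1 (ENSMUSG00000026712, chr2:14229392-14332057, plus strand) had the highest CPM of the 9 genes in most groups. The C mice had 98.0, 100.0 and 47.7 CPM and the H mice 128, 241 and 77.1 CPM, with overlap, and the log2FC was 0.86 (SE 0.53, adjusted p = 0.424 by edgeR). In the long arm the CC_l mice had the lowest Mrc1 levels of all groups, 22.5 and 29.0 CPM. The HH mice, at 189 and 317 CPM, had the highest group mean, although H mouse 2 stood above HH mouse 1. The difference between HH and CC_l was a DEG, with a log2FC of 3.29 (SE 0.70, adjusted p = 0.027 by edgeR). It was 3.13 without CC_l mouse 1. The WL groups overlapped with their controls: HC mice had 48.6, 79.5 and 145 CPM against 85.3, 48.1 and 38.9 CPM in CC_s, and HHC mice 157 and 54.0 CPM against 86.9 and 141 CPM in CCC. The log2FC was 0.66 in HC, 0.15 without HC mouse 3, and -0.11 in HHC, where it turned to 0.02 with RLE scaling.

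Cd163 (ENSMUSG00000008845, chr6:124304656-124330527, plus strand), which is often read together with Mrc1, had much the same range in C and H. The C mice had 33.3, 41.9 and 25.4 CPM and the H mice 30.7, 42.1 and 27.5 CPM, a log2FC of -0.01 (SE 0.40, adjusted p = 1 by edgeR), whose sign changed with the library left out. CC_s mice had 30.4, 30.9 and 27.9 CPM and HC mice 21.1, 23.9 and 44.0 CPM, a log2FC of -0.00424 (SE 0.40, adjusted p = 1 by edgeR). The HH mice had 32.3 and 32.2 CPM, both above the CC_l mice with 27.7 and 11.1 CPM, but the log2FC of 0.73 (SE 0.50, adjusted p = 0.451 by edgeR) missed the threshold. It was 1.54 without CC_l mouse 1 and 0.25 without CC_l mouse 2, and missed the threshold in both fits. In HHC the level was lower: 20.4 and 14.8 CPM against 27.1 and 71.4 CPM in CCC, a log2FC of -1.49 (SE 0.50, adjusted p = 0.307 by edgeR). CCC mouse 2 was far above CCC mouse 1, and without it the log2FC was -0.63 and no longer a DEG. The call was also lost without HHC mouse 1 (log2FC -1.75), without HHC mouse 2 (-1.27) and with RLE scaling (-1.36).

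Lyve1 (ENSMUSG00000030787, chr7:110850607-110863239, minus strand) passed the threshold in none of the 4 comparisons. Its lowest unadjusted p was 0.0571, in HH against CC_l, and DESeq2 called it in none of the 4 either. C mice had 10.5, 16.1 and 16.7 CPM and H mice 20.1, 23.4 and 24.8 CPM, without overlap, and the log2FC was 0.66 (SE 0.39, adjusted p = 0.409 by edgeR). The HH mice had 40.5 and 38.0 CPM, both above the CC_l mice with 16.5 and 23.2 CPM, a log2FC of 0.98 (SE 0.48, adjusted p = 0.302 by edgeR). HC mice ranged from 20.5 to 28.2 CPM against 7.81 to 21.7 CPM in CC_s, and HHC mice from 10.7 to 22.1 CPM against 18.6 to 38.9 CPM in CCC, both with overlap. Because lymphatic endothelium also makes Lyve1, its other markers are given beside it: Prox1, the lymphatic master regulator, stood between 0.358 and 4.98 CPM in the 20 libraries. The sum of the 5 measured lymphatic genes ranged from 39.0 to 99.9 CPM in C and from 39.5 to 73.2 CPM in H. In the long arm it ranged from 28.8 to 62.5 CPM in CC_l and from 77.2 to 81.4 CPM in HH. Pdpn alone made 12.7 and 16.9 CPM of it in CC_l and 46.6 and 55.5 CPM in HH. By log2FC in HH, 3 of the 5 genes were lower and 2 higher, with a median of -0.33. Prox1 itself stood at 3.05 and 4.98 CPM in CC_l and at 1.55 and 1.54 CPM in HH. Of these 5 genes 0 passed the edgeR test in any of the 4 comparisons (with 1, 0, 1 and 0 at an unadjusted p under 0.05 in H, HC, HH and HHC, and 1, 0, 0 and 0 called by DESeq2).

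Cd209f (ENSMUSG00000051906, chr8:4102787-4105835, minus strand) was higher in every HFD mouse than in every chow mouse of the same age but missed the threshold. C mice had 11.4, 13.7 and 8.10 CPM and H mice 22.9, 47.1 and 15.4 CPM, a log2FC of 1.36 (SE 0.49, adjusted p = 0.167 by edgeR). CC_l mice had 16.5 and 16.0 CPM and HH mice 39.8 and 49.6 CPM, a log2FC of 1.46 (SE 0.61, adjusted p = 0.231 by edgeR). HC mice ranged from 9.52 to 25.7 CPM against 9.09 to 10.3 CPM in CC_s, and HHC mice had 7.37 and 23.9 CPM against 18.2 and 42.3 CPM in CCC, both with overlap. Its transcripts share 29.8% of their 50-base words with Cd209g, a neighbouring member of the family, so reads may be split between them. Cd209g itself stood between 1.79 and 11.9 CPM in C and between 7.29 and 11.04 CPM in H.

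Timd4 (ENSMUSG00000055546, chr11:46810800-46844332, plus strand) had the lowest mean level of the 9 genes in every group, and it alone had every H mouse below every C mouse. The C mice had 4.68, 4.32 and 2.87 CPM and the H mice 1.44, 2.01 and 1.73 CPM. Its log2FC was -1.19 (SE 0.77, adjusted p = 0.449 by edgeR), and it did not pass the threshold. CC_s mice ranged from 0.492 to 1.72 CPM and HC mice from 1.44 to 3.27 CPM. CC_l mice had 2.01 and 0.393 CPM and HH mice 3.28 and 2.00 CPM, and CCC mice had 1.73 and 7.19 CPM and HHC mice 3.02 and 0.862 CPM. In these comparisons the groups overlapped, with log2FC of 0.86 (HC), 1.11 (HH) and -1.21 (HHC) and standard errors of 0.77 to 0.95. The HH value was 2.74 without CC_l mouse 1 and 0.42 without CC_l mouse 2, past the threshold in neither fit. Without CCC mouse 2 the HHC value was 0.15.

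F13a1 (ENSMUSG00000039109, chr13:36867178-37050244, minus strand) rose in HH. The CC_l mice had 30.0 and 31.2 CPM and the HH mice 93.2 and 92.0 CPM, the narrowest pair of groups among the 4 DEGs, with a log2FC of 1.60 (SE 0.41, adjusted p = 0.0496 by edgeR). Without CC_l mouse 1 the log2FC was 1.57 but it no longer passed the threshold. The short arm showed smaller differences in the same direction: C mice had 49.6, 66.6 and 30.3 CPM, H mice 74.9, 104 and 68.3 CPM, CC_s mice 49.9, 44.9 and 50.5 CPM and HC mice 52.5, 64.4 and 84.1 CPM. No H mouse overlapped with a C mouse and no HC mouse with a CC_s mouse, but the log2FC of 0.75 (adjusted p = 0.245, edgeR) and 0.47 (adjusted p = 0.682, edgeR) lay under 1. CCC and HHC overlapped, at 46.1 and 70.3 CPM and 86.6 and 54.8 CPM. An antisense gene, Gm30489, overlaps its exons over 74 bases.

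Pf4 (ENSMUSG00000029373, chr5:90772435-90773383, plus strand) rose in HH as well. CC_l mice had 23.4 and 25.3 CPM and HH mice 94.6 and 172 CPM, a log2FC of 2.45 (SE 0.42, adjusted p = 0.0181 by edgeR). In H it stood at 66.7, 90.8 and 48.1 CPM against 44.8, 33.1 and 29.3 CPM in C, all above, with a log2FC of 0.94 (SE 0.33, adjusted p = 0.149 by edgeR), just outside both thresholds. HC mice had 38.1, 60.8 and 66.7 CPM against 38.2, 36.2 and 35.8 CPM in CC_s, and HHC mice 54.3 and 55.0 CPM against 35.4 and 54.8 CPM in CCC, overlapping in both. Platelets also hold Pf4 mRNA, so their other markers are given: of 7 tested platelet genes 0 passed the edgeR test in any of the 4 comparisons (with 2, 1, 0 and 0 at an unadjusted p under 0.05 in H, HC, HH and HHC, and 1, 1, 0 and 0 called by DESeq2). Ppbp, the platelet chemokine gene next to Pf4, stood between 1.16 and 2.10 CPM in CC_l and between 2.63 and 6.48 CPM in HH, and Gp9, a platelet glycoprotein, was at most 1.16 CPM in any library.

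Cbr2 (ENSMUSG00000025150, chr11:120729489-120732114, minus strand) was higher in every HFD mouse than in every chow mouse of the same age, without passing the threshold. C mice had 17.8, 29.5 and 10.4 CPM and H mice 51.3, 54.7 and 47.6 CPM, a log2FC of 1.41 (SE 0.57, adjusted p = 0.219 by edgeR). CC_l mice had 18.1 and 19.9 CPM and HH mice 56.0 and 84.2 CPM, a log2FC of 1.88 (SE 0.71, adjusted p = 0.186 by edgeR). HC mice ranged from 14.7 to 34.6 CPM against 9.75 to 22.0 CPM in CC_s. The HHC mice differed most from each other, at 4.53 and 35.3 CPM, and spanned the CCC mice at 12.9 and 26.6 CPM. Without HHC mouse 2, the higher of the pair, the log2FC was -2.12 and passed the threshold, against 0.83 without HHC mouse 1. Of its 50-base words 12.1% also occur in Gm11771.

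**Figure D2:**
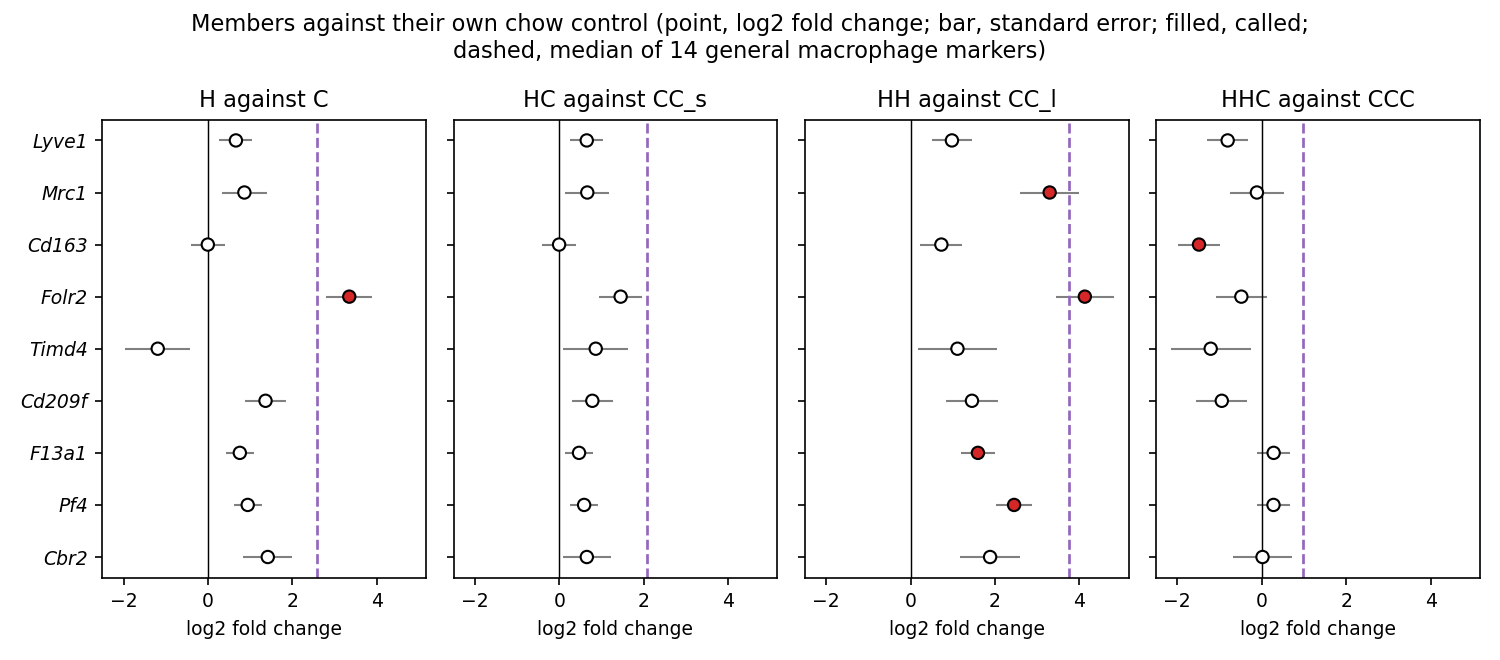
Log2 fold change (point) with its standard error (bar) of the 9 genes in the 4 comparisons; filled points passed the test and the dashed line is the median of 14 general macrophage markers. Folr2 at 3.34 in H and 4.13 in HH is the only one of the 9 to the right of the dashed line in those panels, and all 9 points lie to the left of it in HC and HHC.

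Per kilobase of exon, Pf4 was the most abundant of the 9 mRNAs in chow mice, at a mean of 49.6 CPM per kb in C. Cbr2 (14.5 CPM per kb), Mrc1 (12.9) and F13a1 (7.24) followed, then Cd163 (6.14), Cd209f (5.58), Lyve1 (4.93), Folr2 (3.43) and Timd4 (1.82). In HH the level of Folr2 was 99.8 CPM per kb, second to Pf4 at 185 CPM per kb and above Cbr2 at 52.8 and Mrc1 at 39.7 CPM per kb.

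Because 2 genes counted in the same library share its depth and scaling, the number of Folr2 counts per Cd163 count was also taken, a pair chosen after the values were seen and given as a description. The ratio was 0.134, 0.175 and 0.162 in the C mice and 1.29, 2.43 and 0.724 in the H mice. It was 0.265, 0.188 and 0.373 in CC_s and 0.982, 0.817 and 0.595 in HC, again without overlap. It was 0.313 and 0.806 in CC_l and 2.89 and 6.67 in HH. CCC (0.885 and 0.374) and HHC (0.508 and 1.75) overlapped. Folr2 thus had more counts than Cd163 in 4 of the 5 HFD mice and in 0 of the 10 chow mice. Counts do not show which mRNA was more numerous, because the exons span 1546 bases in Folr2 and 5461 in Cd163. Per kb of exon, mean Folr2 was above Cd163 in CC_l (5.70 and 3.55 CPM) and CCC (16.4 and 9.02). It was below Cd163 in C (3.43 and 6.14) and CC_s (5.24 and 5.45).

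Whether the HFD effect differed from the WL effect was tested as an interaction (adjusted p under 0.05). In the long arm, 1 of 9 genes differed between HH and HHC, Folr2, beside 0.815% of all tested genes: its difference was 4.61 on the log2 scale, with an SE of 0.90 and an adjusted p of 0.0329 (edgeR). Mrc1 (3.41, adjusted p = 0.0893, edgeR) and Pf4 (2.17, adjusted p = 0.0792, edgeR) missed it. In the short arm, 0 of 9 genes differed between H and HC by edgeR (0% of all tested genes), with 1 at an unadjusted p under 0.05, Folr2, at 1.89 with an SE of 0.71, and 0 by DESeq2. Between the arms, 0 of 9 differed between H and HH (0% of all tested genes, 2 members at an unadjusted p under 0.05, 0 by DESeq2). Likewise 0 of 9 differed between HC and HHC (0% of all tested genes, 4 members at an unadjusted p under 0.05, 0 by DESeq2). The call for Folr2 in the long arm depended on single mice: it was lost when any of 6 of the 8 mice involved was left out. Over all 8 fits that left out 1 mouse the difference lay between 3.91 and 5.43.

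Other genes of resident macrophages had medians near those of the members. The median log2FC of the 9 members was 0.86 (H), 0.65 (HC), 1.60 (HH) and -0.48 (HHC). Over all tested genes it was -0.15, 0.27, -0.23 and -0.06, and over 27 other genes linked to resident macrophages 0.88, 0.65, 1.80 and -0.49. Of these 27 genes 7 rose in H, 1 in HC and 13 in HH, whereas 2 fell in HHC. The list was not uniform. By the sign of the log2FC alone, 8 of the 27 were lower in H, 5 in HC, 3 in HH and 15 in HHC. The lowest log2FC was -2.93 in H. In HH the 3 lower genes were Hpgd (-0.94), Blvrb (-0.84) and Cd5l (-0.62). Cd5l stood at 14.6, 5.46 and 1.97 CPM in C and at 0.456, 2.28 and 0.096 CPM in H, with overlap. Ccl8, a chemokine gene, rose from a mean of 7.02 CPM in C to 137 CPM in H and from 19.2 CPM in CC_l to 229 CPM in HH. C1qb, a chain of complement C1q, rose in H (log2FC 3.31), HC (2.04) and HH (3.96), and Mgl2, a galactose-binding lectin, in H (1.91) and HH (3.05). Vsig4, a complement receptor, rose in HH with a log2FC of 4.43, and Stab1, a scavenger receptor, fell in HHC by 1.94 on the log2 scale. Without HC mouse 3 and CC_l mouse 1, C1qb no longer passed the test in HC (log2FC 1.61), and 8 of the 27 rose in HH, where Ccl8 (3.13) and Vsig4 (3.86) no longer passed it.

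General macrophage markers moved further than the 9 genes in each comparison by their median. The median log2FC of 14 such markers was 2.57 (H), 2.09 (HC), 3.75 (HH) and 0.98 (HHC), and 10, 10, 11 and 0 of the 14 rose. At an adjusted p under 0.05 these counts were 7, 0, 9 and 0, so the calls in HC rest on the unadjusted threshold. In HHC the 14 markers summed to 3234 CPM in mouse 1 and to 1035 CPM in mouse 2, against 1149 and 997 CPM in CCC. HHC mouse 2 thus stood between the CCC mice. Leaving out HC mouse 3 and CC_l mouse 1, 6 of the 14 rose in HC and 10 in HH, with medians of 1.51 and 3.34 beside 0.43 and 1.82 for the 9 members. Adgre1 (F4/80) rose from 12.6 to 70.0 CPM in H, from 6.26 to 35.1 CPM in HC and from 7.93 to 178 CPM in HH. Cd68, a lysosomal protein of phagocytes, rose from 9.50 to 140 CPM in H, from 5.75 to 73.7 CPM in HC and from 27.5 to 411 CPM in HH. In CC_l, Cd68 stood at 7.01 CPM in mouse 1 and at 48.1 CPM in mouse 2. Without HC mouse 3 and CC_l mouse 1 its log2FC in HH was 3.10, against 3.90 with all mice. HC mouse 3 stood far above the other HC mice for both genes, with 69.5 CPM for Adgre1 and 147 CPM for Cd68. Without HC mouse 3 (and CC_l mouse 1, which shares the fit) the HC mean was 17.9 CPM for Adgre1, which no longer passed the test (log2FC 1.52), and 37.2 CPM for Cd68, which did (2.70). Of 10 genes of lipid-associated macrophages 6, 5, 2 and 0 rose in these comparisons, with medians of 2.79, 3.14, 2.55 and 0.54. Trem2, their lipid receptor, rose in H (3.83), HC (3.79) and HH (3.75), and Gpnmb in H (4.18) and HC (4.75). In HHC, where edgeR called 0 genes of either list, 0 of the 14 general markers and 0 of the 10 lipid-associated genes had an unadjusted p under 0.05 and DESeq2 called 0 and 0. Without HC mouse 3 and CC_l mouse 1, 5 of the 10 rose in HC. The median log2FC of the 10 was then 1.88 in HC and 1.62 in HH, beside 0.43 and 1.82 for the 9 members. The HC values were 2.49 for Trem2 and 3.21 for Gpnmb, both past the threshold. In HH, Trem2 then had a log2FC of 2.80 and missed it. CC_l mouse 1 had 1.16 CPM of Trem2 and CC_l mouse 2 30.9 CPM. Monocyte genes gave 2 of 8 risen in HH, Ccr2 (2.78) and Vcan (2.2), and 0 of 8 in the other 3 comparisons by edgeR (in H, HC and HHC, 2, 5 and 1 at an unadjusted p under 0.05 and 0, 1 and 0 called by DESeq2). Neither Ccr2 (2.64) nor Vcan (2.19) passed it without HC mouse 3 and CC_l mouse 1.

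**Figure D3:**
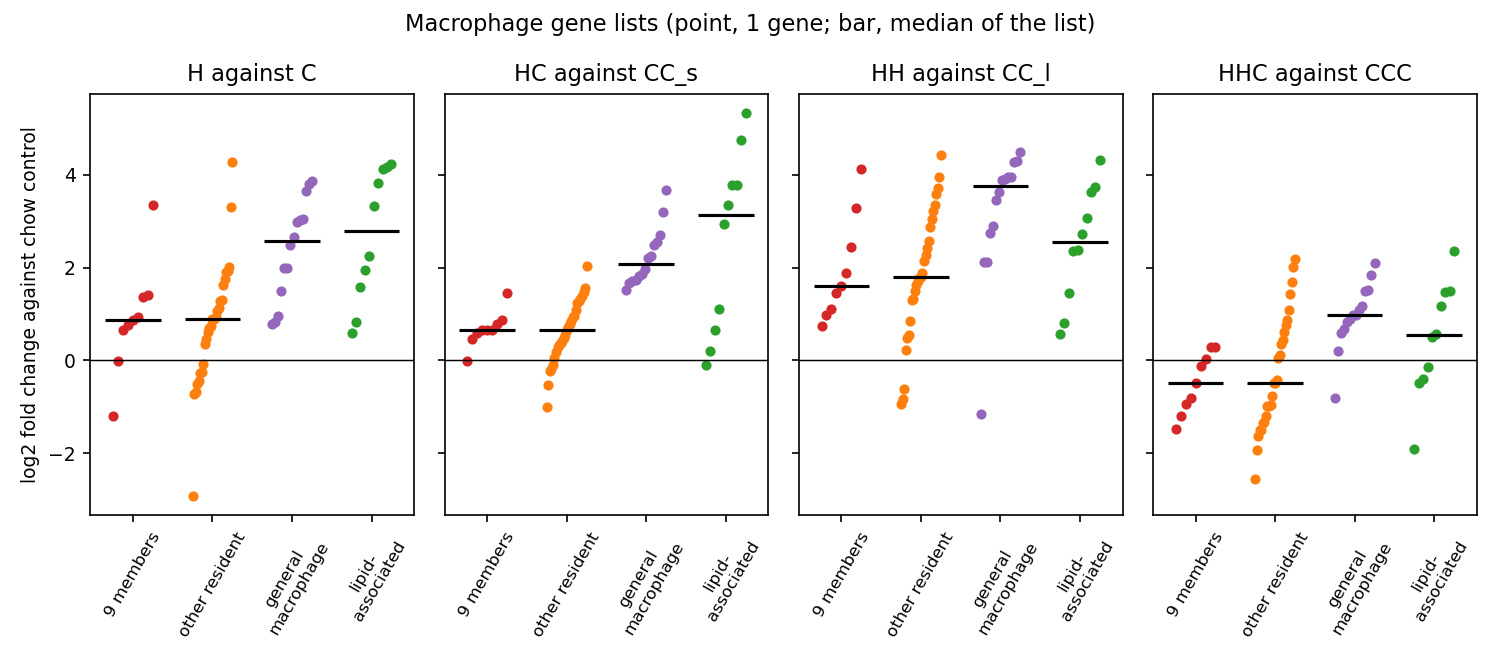
Log2 fold change of each gene (point) in 4 macrophage gene lists in the 4 comparisons; bars are medians of the lists. The medians of the 9 members and of the 27 other resident genes lie side by side (0.86 and 0.88 in H, 1.60 and 1.80 in HH), below the medians of the general markers (2.57 and 3.75).

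The ratio of the summed CPM of the 9 members to that of the 14 general markers, a description without a test, was lower in H, HC and HH than in their controls in every mouse. It ranged from 0.489 to 0.651 in C and from 0.144 to 0.390 in H, a mean difference of -1.30 on the log2 scale (pooled SD 0.53). CC_s ranged from 0.746 to 0.832 and HC from 0.158 to 0.392 (difference -1.43, and -0.996 without HC mouse 3). CC_l mice stood at 0.360 and 0.270 and HH mice at 0.136 and 0.166 (difference -1.05). In CC_l mouse 1, Aif1 alone made 203 of the 460 CPM of the general markers, against 10.5 CPM in CC_l mouse 2. This lowers the ratio of CC_l mouse 1. CCC (0.236 and 0.481) overlapped with HHC (0.1096 and 0.277). The summed level of the members was itself higher in H (330 to 707 CPM) than in C (175 to 313 CPM), in HC (263 to 414 CPM) than in CC_s (200 to 254 CPM) and in HH (642 and 1002 CPM) than in CC_l (165 CPM in both mice).

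**Figure D4:**
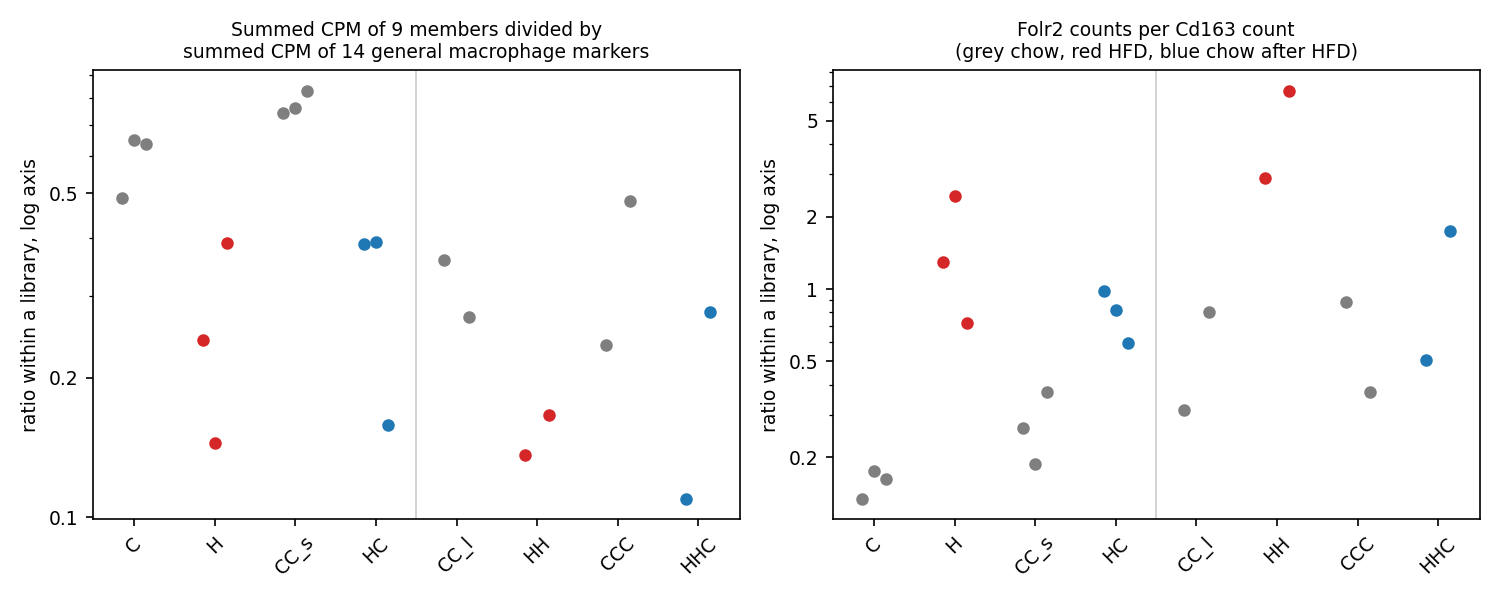
Left, summed CPM of the 9 members divided by that of 14 general macrophage markers in each mouse; right, Folr2 counts per Cd163 count; both on a log axis, with grey for chow, red for HFD and blue for chow after HFD. On the left all H, HC and HH mice (at most 0.392) lie below their chow controls, and on the right the H and HH mice (0.724 to 6.67) lie above their own controls.

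The chow groups also differed in their levels, which bears on each contrast. The summed general macrophage markers were 250 to 340 CPM in CC_s, 274 to 562 CPM in C and 460 to 612 CPM in CC_l, but 997 to 1149 CPM in CCC. Of the 460 CPM in CC_l mouse 1, 203 CPM were Aif1. The members summed to 271 and 479 CPM in CCC and to 287 and 354 CPM in HHC. CCC mouse 2 was the highest of the 10 chow mice for 8 of the 9 genes, all but Cbr2.

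Across the 20 libraries the 9 genes varied together only in part. The 36 pairwise Pearson correlations of log2 CPM ranged from 0.038 to 0.894 with a median of 0.498, a description over mice that share groups and scaling. Mrc1 was most like Cmtm3 (r = 0.952), Gpr34 (0.950) and Cysltr1 (0.946) over these 20 libraries. Folr2 was most like Gusb (0.967), Mfap5 (0.958) and Serping1 (0.950), and F13a1 most like Sept11 (0.958), Ddr2 (0.956) and Alox5ap (0.908). Pf4 was most like Lum (0.942), Rnase4 (0.914) and Ctsb (0.911). The highest value was 0.931 for Cd209f (Bcap31, then Tmem131 and Golm1), 0.878 for Cbr2 (Lbp, then Slc43a3 and Copg2), 0.871 for Timd4 (Gm38372, then E430024P14Rik and Gm23318), 0.870 for Cd163 (Gm43747, then R3hdm1 and Gm42528) and 0.857 for Lyve1 (Dnase1l1, then Cercam and Tspan4).

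Markers of other cell types also passed the test in the same comparisons. Of 7 blood endothelial genes 4 rose in H, 0 in HC and 6 in HH, whereas 2 fell in HHC (in HC, 0 at an unadjusted p under 0.05 and 0 called by DESeq2). Pecam1 rose from 116 to 451 CPM in H and from 44.7 to 370 CPM in HH, and their summed level was 282 to 688 CPM in C and 1264 to 1816 CPM in H. In HHC the sum was 89.6 and 127 CPM against 290 and 611 CPM in CCC. Of 6 adipocyte progenitor genes 1 rose in H, 1 in HC and 4 in HH, with a sum of 387 and 620 CPM in CC_l and 3027 and 4679 CPM in HH. Of 9 adipocyte genes 1 rose and 2 fell in H and 1 fell in HH, Cfd (log2FC -2.40, and -2.57, no longer past the threshold, without HC mouse 3 and CC_l mouse 1), and their sum was 57546 and 60471 CPM in CC_l and 26669 and 31887 CPM in HH. Without HC mouse 3 and CC_l mouse 1, 5 endothelial and 2 progenitor genes rose in HH, and Pdgfra, the progenitor gene that rose in HC, no longer passed the test there. The part of these cells, and of mRNA carried along in the pull-down, in the levels of the 9 genes was not tested.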

How the data were processed

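The data were TRAP–seq libraries of epiAT from 20 mice in 8 groups. Per the paper's methods and the labels, reads were trimmed with Trim Galore 0.6.6, aligned to mm10 with HISAT2 2.2.1 and counted with featureCounts (Subread 2.0.1), and the authors deposited the whole-number counts per gene without normalization. The strand setting and the counting of read pairs are not given in the sources used here. The share of even numbers among nonzero counts was 74.4% to 89.2%, so halved counts were an alternative. PCR reads carry no molecular identifiers, so limits from counts cover counting error only.

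From the deposited counts, CPM were computed with TMM scaling, and edgeR 4.0.16 (R 4.3.3) fitted its quasi-likelihood model to all 20 libraries in 8 groups after filterByExpr, with 21464 of 46078 genes tested and Benjamini-Hochberg adjustment over all of them. The fit had a biological coefficient of variation of 0.680 and 5.29 prior degrees of freedom. The threshold for DEGs was an unadjusted p of 0.01 with a log2 fold change of 1 in either direction, and for interactions an adjusted p of 0.05. In simulated counts of H against C, 64 of 100 genes changed 4-fold and 88 of 100 changed 8-fold were found. Each sample was a separate mouse per the labels. Alternatives were DESeq2 1.42.0, RLE scaling, no filter, a fit of the compared groups alone, the likelihood ratio test, a replicate block, halved counts, another rule for the call, other forms of the ratio and leaving out each mouse. Symbols, positions and overlaps came from GENCODE vM21, sequences from RefSeq tables of GRCm38.p6. Figures were drawn with matplotlib 3.10.9.

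The members, the gene lists and the motifs were chosen with earlier results of these data known. All 9 members were named, other lists by genes that passed the test, with at most 6 per list, and the first 3 markers of each cell type, and the 3 genes with the highest Pearson correlation to a member. Adipocyte, mesothelial, lymphocyte, spermatid and epididymal lists served as checks: mesothelial genes gave 2 of 5 fallen in H and 1 in HHC, lymphocyte genes 1 of 6 risen in HC and 1 in HH, spermatid genes 4 of 6 risen in HC (calls lost without HC mouse 3 and CC_l mouse 1) and epididymal genes 1 of 6 risen in H.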

Additional observations from a re-analysis of the deposited data

Results flagged for a closer look

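Folr2 was flagged because its HFD effect and its WL effect in the long arm differed by a test of the difference itself: the HH effect exceeded the HHC effect by 4.61 on the log2 scale (SE 0.90, adjusted p = 0.0329 by edgeR's interaction test over all genes). The HH effect was 4.13, with both HH mice above both CC_l mice, and the HHC effect was -0.48, with overlapping mice. The 2 effects rest on different chow groups, at 8.66 and 8.97 CPM in CC_l and at 24.0 and 26.7 CPM in CCC. The difference was between 4.42 and 4.64 under the other tools and settings, 4 of 9 of which called it. The adjusted p passed the threshold in 2 of the 8 fits that each left out 1 mouse.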

How the results depend on the processing

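The counts of members called in H against C (1), HC against CC_s (0), HH against CC_l (4) and HHC against CCC (1) varied with the settings. In H the count was 3 with no filter and 2 with the likelihood ratio test or the replicate block, and in HC it was 1 with DESeq2, no filter, the likelihood ratio test or only the compared groups. In HHC it was 0 with RLE, DESeq2, halved counts, the replicate block, only the compared groups or an adjusted p as the call. In HH it was 3 to 6. Leaving out 1 mouse gave 1 to 3 in H (2 without C mouse 1 or 2, 3 without H mouse 3), 0 throughout in HC, 3 to 4 in HH and 0 to 1 in HHC (0 without CCC mouse 2 or HHC mouse 1, Cd163 without CCC mouse 1, and Cbr2 in place of Cd163 without HHC mouse 2). Without HC mouse 3 and CC_l mouse 1 together, chosen after seeing the data, 3 members were called in HH.

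The count of 1 member differing between HH and HHC was 3 with the likelihood ratio test or DESeq2, 2 with no filter, 4 with a nominal p, and 0 with RLE, the replicate block, only the compared groups or without HC mouse 3 and CC_l mouse 1. It was 0 to 1 when leaving out 1 mouse (0 without either CC_l mouse, either HH mouse, CCC mouse 2 or HHC mouse 1). Between H and HH, 2 members passed a nominal p. The ratio to general markers in HH against CC_l was -1.41 from geometric means, -1.33 without Mrc1 and -0.79 without Lyz2.

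The sign of some log2FC turned. Cd163 in H was 0.00297 with halved counts and -0.21 to 0.18 with 1 mouse left out. In HC it was 0.0299 with RLE or DESeq2, 0.13 with no filter, and -0.41 to 0.19 with 1 mouse left out. In HHC, Mrc1 was 0.0243 with RLE, 0.0245 with DESeq2, 0.0657 with halved counts, 0.0499 with only the compared groups and -1.09 to 0.46 with 1 mouse left out. Cbr2 was -0.27 with the replicate block, crossed or not, and -2.12 to 0.83 with 1 mouse left out. With 1 mouse left out, Pf4 was -0.00653 to 0.62, Timd4 -2.37 to 0.15, Folr2 -1.29 to 0.0189 and F13a1 -0.0916 to 0.61. The causes were not tested.

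Whether the replicate numbers pair mice is not given in the labels. Deviations of same-numbered mice from their group means had correlations of -0.28 to 0.19. Groups of 2 or 3 mice cannot settle the question, and with 2 mice the 2 deviations of a gene are exact opposites. The replicate block left 2, 0, 4 and 0 members called in H, HC, HH and HHC. With the numbers of the long arm crossed, added after seeing the data, 4, 0 and 0 members were called in HH, HHC and the difference between them. RLE moved the median of all genes by at most 0.076. Of all genes called, 55.0% rose in H (46.5% with RLE, 42.7% with DESeq2), 72.4% in HH (60.2% with DESeq2) and 14.3% in HHC (27.0% with RLE, 28.7% with DESeq2). Timd4, the lowest member, rests on few counts, and 2 mice a group in the long arm limit the tests.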
